A study of Mus musculus with 9 samples.

Results

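Among the genes listed in a table of 6DT1 mouse mammary tumor cells with a knockdown of Resf1, 314 were processed pseudogenes expressed in the control cells. They were chosen as the genes that GENCODE M21 types as processed pseudogenes and that had a mean of at least 100 normalized counts over the 3 shControl libraries. The table held 5301 genes, of which 342 were processed pseudogenes, and 28 of these were below that level. Each member was assigned to the protein-coding transcript that its own sequence matched best, which is called its parent here. By this match, or by its symbol, 148 members derived from a ribosomal protein gene. The remaining 166 formed the other class, in which 165 matched another gene. The symbol alone named 53 of the 148. The members just inside the level were Gm46610 (mean of 107 normalized counts in shControl) and Gm9523 (107), and those just outside were Gm1848 (98.9) and Gm14277 (97.5).

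A processed pseudogene arises when a messenger RNA is copied back into DNA and inserted elsewhere in the genome, so it lacks the introns of its parent and usually its promoter. Genes with abundant, short messages leave the most such copies, and the genes of the cytosolic ribosomal proteins have left very many in the mouse. Because a copy can stay nearly identical to its parent, short reads from the parent message can align to the copy as well as to the parent, and a level assigned to a pseudogene need not come from that locus.

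The cells came from the 6DT1 line, which derives from an MMTV-Myc mammary tumor, driven by a Myc transgene under a mammary promoter, and is syngeneic to FVB/NJ mice. All 3 groups carried a lentiviral hairpin and were grown under puromycin. They held a scramble hairpin (shControl) or 1 of 2 hairpins against Resf1 (shH4 and shH6), with 3 libraries each, made from stranded total RNA of cells plated in triplicate. The dishes of a group came from 1 transduced line, so a hairpin cannot be told apart from its line, and p-values measure the spread between dishes only. The comparisons address how depletion of Resf1 affects transcription, here in the annotated pseudogenes.

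Sequences are shown for 8 pairs on which the results turn, so that the closeness of copy and parent can be seen. Each is a stretch of 60 bases within the coding part of the parent, read 5′ to 3′ from the transcript sequences of GENCODE M21 (GRCm38), and the capitals mark the bases at which copy and parent differ. The first pairs are the ribosomal protein-derived member with the highest level, Rpl3-ps1 on the plus strand at chrX:13202571-13203780, and the member of the other class with the highest level, Gm15459 on the minus strand at chr5:5781615-5783555. Each pair has 1 difference in its stretch.
Rpl3-ps1: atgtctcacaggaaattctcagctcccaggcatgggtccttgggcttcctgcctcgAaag
Rpl3: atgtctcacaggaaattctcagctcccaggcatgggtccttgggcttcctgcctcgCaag
Gm15459: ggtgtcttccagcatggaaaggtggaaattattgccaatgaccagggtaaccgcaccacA
Hspa8: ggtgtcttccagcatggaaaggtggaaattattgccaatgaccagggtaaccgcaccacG
The next pairs hold the members with the lowest p-value between the hairpins in each class, Gm11824 on the plus strand at chr4:14170066-14170911, with 7 differences from Rpsa, and Gm3571 on the plus strand at chr10:93778660-93779719, with 2 differences from Fdps.
Gm11824: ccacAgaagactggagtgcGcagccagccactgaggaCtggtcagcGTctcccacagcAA
Rpsa: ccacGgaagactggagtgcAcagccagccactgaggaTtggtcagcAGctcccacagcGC
Gm3571: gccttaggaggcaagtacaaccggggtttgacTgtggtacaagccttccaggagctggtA
Fdps: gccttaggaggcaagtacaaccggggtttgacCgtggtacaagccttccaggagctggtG
The next pairs hold the members furthest below shControl in each class by the mean of both hairpins, Rpl22-ps1 on the minus strand at chrX:8038611-8038996, with 6 differences from Rpl22, and Gm5424 on the plus strand at chr10:62071123-62072362, with 2 differences from Ass1.
Rpl22-ps1: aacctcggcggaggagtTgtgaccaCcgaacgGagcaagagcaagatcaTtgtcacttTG
Rpl22: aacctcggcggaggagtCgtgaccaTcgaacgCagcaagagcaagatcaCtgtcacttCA
Gm5424: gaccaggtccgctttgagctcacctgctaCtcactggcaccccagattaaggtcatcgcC
Ass1: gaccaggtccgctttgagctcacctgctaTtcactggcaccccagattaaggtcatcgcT
The last pairs hold members that lay on the other side of shControl than their parents, Rpl10-ps5 on the plus strand at chr8:94222993-94223634 and Gm9396 on the plus strand at chr3:130068412-130068978, with 2 differences from the parent each.
Rpl10-ps5: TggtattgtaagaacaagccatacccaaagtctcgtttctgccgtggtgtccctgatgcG
Rpl10: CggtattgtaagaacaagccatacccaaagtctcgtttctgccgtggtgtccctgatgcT
Gm9396: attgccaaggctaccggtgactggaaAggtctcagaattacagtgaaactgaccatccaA
Rpl12: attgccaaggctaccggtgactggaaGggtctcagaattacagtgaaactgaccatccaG

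Summed over the listed genes, a library held between 10.5 and 19.9 M estimated reads. Resf1, measured as a check of the labels, was at 1585 ± 29.3 normalized counts with the scramble hairpin, 982 ± 31.7 with shH4 and 1121 ± 8.88 with shH6 (SD of 3 libraries), and no groups overlapped. All 5301 genes lay on the same side of shControl in both hairpins and had a limma adjusted p under 0.05 for the mean of both. The table was thus a selected part of the genes, and every comparison with shControl is a description. Of the marker genes examined, the table listed 2 of 12 for mammary epithelium (Krt8 and Krt18, summed level 26584 to 28996 normalized counts over the shControl libraries, 22386 to 23863 with shH4 and 24795 to 27873 with shH6), 1 of 8 mesenchymal (Pdgfra, 69.7 to 108, 119 to 162 and 128 to 157), 1 of 7 leukocyte (Cd14, 448 to 466, 403 to 411 and 354 to 369), 2 of 4 endothelial (Cdh5 and Pecam1, 20.2 to 30.7, 173 to 208 and 26.01 to 31.2) and 0 of 4 erythroid. The other markers were not analysed here. The part of these differences in the levels of the pseudogenes was not tested.

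The members were close copies of their parents. The median identity to the parent over the aligned bases was 98.9% in the ribosomal protein-derived class, with a range of 91.8% to 100%, and 98.8% in the other class, with a range of 88.7% to 100%. Of the 148 ribosomal protein-derived members, 15 matched the parent without a difference, as did 11 of the 166 others. For 1 member, Gm16216, no parent was found. The ribosomal protein-derived members were shorter, with a median of 538 bases (range 151 to 1270) against 1046 bases (246 to 6092). A reading frame of at least 95% of the coding length of the parent was intact in 59 of the 148 and in 53 of the 166. A frame of under 50% was left in 53 and in 76. In GENCODE M21, 89 of the ribosomal protein-derived members lay between genes, 40 in an intron of a protein-coding gene, 5 over an exon of one, 7 in an exon of a non-coding gene and 7 in an intron of one. Of the others, 113 lay between genes, 29 in an intron and 5 over an exon of a protein-coding gene, 13 in an exon and 6 in an intron of a non-coding gene. Every chromosome but Y held members, from 8 on chromosome 18 to 24 on chromosome X.

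The 148 ribosomal protein-derived members had 63 parents, and 19 of these parents had 1 member. Rpsa, a protein of the small subunit that is also known as the laminin receptor, had 7 members. Rpl17 had 6 members, and Rpl3, Rpl7, Rpl23a and Rps4x had 5 each. The 165 others with a parent had 129 parents, of which 112 had 1 member. Eef1a1, the elongation factor that brings aminoacyl-tRNA to the ribosome, had 11 members. Actg1, a cytoplasmic actin, had 6 members, and Hspa8, a constitutive heat shock chaperone, and Tuba1b, an alpha tubulin, had 4 each.

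The values of the members were seldom whole numbers of reads. A library's values for most protein-coding genes were multiples of a fixed step, which is the worth of 1 read. Between 100 and 500 normalized counts, 75.2% of the values of protein-coding genes lay within 0.02 reads of a whole number of reads, with 73.6% to 76.2% in single libraries. This share was 3.64% in the ribosomal protein-derived pseudogenes (0% to 7.69%) and 8.18% in the others (1.39% to 15.0%), as the plot of these shares shows. Fractional values can also fall within 0.02 reads of a whole number by accident, and this part was not subtracted from the shares. Among members of under 97% identity to the parent the share was 12.5% (2.94% to 18.8%), and among those of 99% or more it was 5.31% (0% to 16.7%). The ranges of the single libraries thus overlapped. Counting programs can divide a read among the places it matches, and how reads that match several places were counted is not given in the sources used here. The level of a single locus is therefore uncertain for these members.

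**Figure D1:**
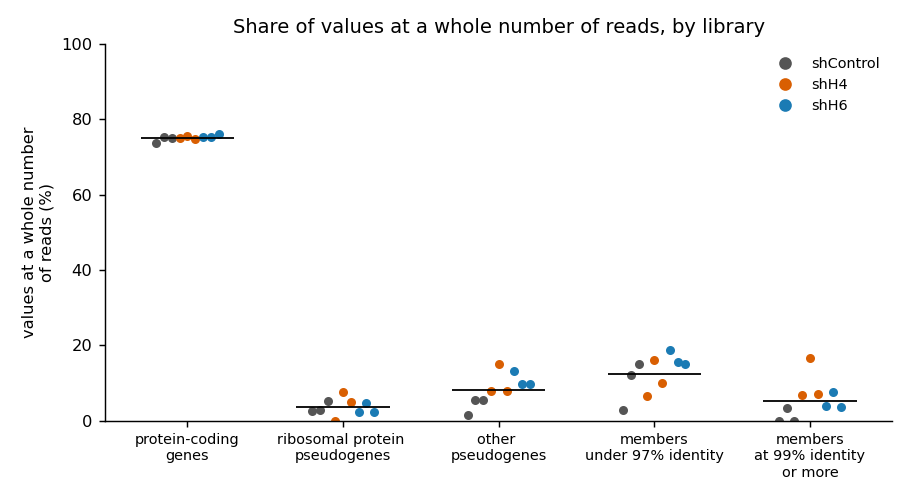
Percent of values from 100 to 500 normalized counts that lay within 0.02 reads of a whole number of reads (vertical axis), for protein-coding genes, both classes of pseudogenes and members of low and high identity (horizontal axis). Each point is a library, colored by group, and the line is the share over all 9 libraries, 75.2% for protein-coding genes against 3.64% and 8.18% for the classes of pseudogenes.

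The members with the highest levels were copies of translation, glycolysis, chaperone and actin genes. Per kilobase of transcript in shControl, Rpl3-ps1 (a copy of the gene of a large-subunit protein) was at 37839 normalized counts, Rps6-ps4 at 32005, Gm13394 (a copy of the glycolytic Gapdh) at 30554, Rpl19-ps11 at 27537 and Gm15459 (Hspa8) at 26564. The same level was 25305 for Gm13456 (Eef1a1), 21452 for Eif4a-ps4, a copy of the RNA helicase gene Eif4a1, and 12508 for Gm4366, a copy of Eef1g. The ribosomal protein-derived class had a median of 2468 normalized counts per kilobase in shControl (range 167 to 37839) and the other class a median of 612 (46.0 to 30554).

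Several of these copies had a higher level per kilobase than the parent itself. Rpl3-ps1 was at 720.3% of the level per kilobase of Rpl3, Rps6-ps4 at 427% of Rps6, Eif4a-ps4 at 337% of Eif4a1, Gm15459 at 276% of Hspa8 and Gm10132 at 1134% of Rpl23a. This was so for 29 of the 117 ribosomal protein-derived members whose parent was in the table and for 27 of the 149 others. The median was 20.5% and 38.1% of the parent. These ratios used the length of the 1 matched parent transcript, and the identity of all 5 copies named was above 99%. Where copies are this close, the split of reads between parent and copy is uncertain.

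The hairpins were compared with each other first, since the rule for the members used only the annotation and the shControl level. The table held only genes on the same side of shControl in both hairpins, so this comparison was limited by that selection as well, and its p-values apply to genes so selected. Of the 148 ribosomal protein-derived members, 2 differed between shH6 and shH4 (limma adjusted p under 0.05), 1 higher and 1 lower in shH6, and of the 166 others 5 did, 3 higher and 2 lower. That is 1.35% and 3.01% of each class, against 8.26% of all genes of the table, in which 3.89% were higher and 4.38% lower in shH6. At an unadjusted p under 0.05 the counts were 11 and 21, against 21.5% of all genes. In the other class, 4 passed with upper-quartile scaling and 5 with column-total scaling, all of them higher in shH6. The count of 5 became 12 with library weights and 3 with the replicate number as a block. It became 2 without shH4 replicate 3 or without shH6 replicate 1, and 3 without shControl replicate 3 or without shH6 replicate 2. The count of 2 became 1 without shH4 replicate 1, shH4 replicate 3 or shH6 replicate 3. The 3 libraries of shH6 lay wholly on one side of the 3 of shH4 for 15 ribosomal protein-derived members (10.1%) and 24 others (14.5%), against 24.8% of all genes. The median difference was −0.012 on the log2 scale in the ribosomal protein-derived class (range −0.21 to 0.26), 0.0081 in the other class (−0.46 to 0.36) and −0.0049 over all genes. The signs of these medians were not stable. With column-total scaling the median was 0.0033 in the ribosomal protein-derived class and 0.0099 over all genes, and without 1 library that of the other class ran from −0.012 to 0.031.

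**Figure D2:**
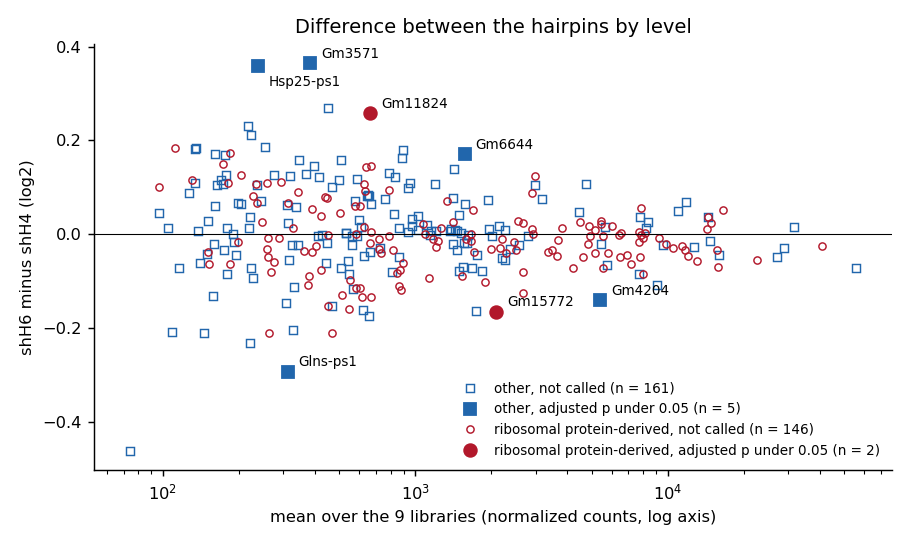
Log2 difference of shH6 minus shH4 (vertical axis) against the mean over the 9 libraries in normalized counts (horizontal log axis) for the 314 members. Filled symbols with names are the 7 members with a limma adjusted p under 0.05, 2 of them ribosomal protein-derived (red circles) and 5 from other genes (blue squares), and the spread of the open symbols widens at low levels.

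In the ribosomal protein-derived class, Gm11824 was higher in shH6. It was at 544, 559.6 and 599 normalized counts in shH4 and 649, 678 and 708 in shH6, without overlap. It was also at 736, 765 and 744 in shControl, above both. The difference of shH6 from shH4 was 0.26 (SE 0.057, limma adjusted p = 0.00845). Gm11824 was 95.6% identical to Rpsa, and Rpsa itself was at 35881, 38769 and 36262 in shH4 and 38340.5, 39289.5 and 36642 in shH6. The difference in Rpsa was 0.043 (limma adjusted p = 0.622), and its groups overlapped.

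Gm15772, on the plus strand at chr5:3236431-3236868 and a 99.5% copy of the large-subunit gene Rpl26, was lower in shH6. It was at 2289, 2391 and 2276 in the shControl libraries, 2073, 2121 and 2115 with shH4 and 1938, 1954 and 1742 with shH6. The shH6 libraries were all below those of shH4, by −0.17 (SE 0.045, limma adjusted p = 0.0299). In Rpl26 the difference was −0.051 (limma adjusted p = 0.433).

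In the other class, the copy with the lowest p-value was Gm3571, from Fdps, the farnesyl diphosphate synthase of the mevalonate pathway. Gm3571 was at 447, 462 and 460.3 in the shControl libraries, 293, 304 and 319 with shH4 and 385, 404 and 391 with shH6, so that no groups overlapped and shH6 lay between the others. The difference of shH6 from shH4 was 0.36 (SE 0.065, limma adjusted p = 0.00191). Fdps had the same order, at 1466, 1490.2 and 1417 in the shControl libraries, 989.8, 1056 and 1092 with shH4 and 1347, 1286 and 1197 with shH6, with a difference of 0.29 (SE 0.052, limma adjusted p = 0.00221).

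Gm6644, an intronic copy on the strand opposite to Plcl1 at chr1:55444074-55445024, derives from Akr1b3, an aldose reductase. It was at 1727, 1763 and 1780.2 in the shControl libraries, 1370.0, 1392 and 1424 with shH4 and 1569, 1587 and 1553 with shH6, again with shH6 between the others and no overlap. The difference was 0.17 (SE 0.039, limma adjusted p = 0.0109), and in Akr1b3 it was 0.15 (SE 0.04, limma adjusted p = 0.0334). The copy was 99.7% identical to Akr1b3.

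Hsp25-ps1, from the small heat shock protein gene Hspb1, lies at chr13:45078498-45079127 on the minus strand, opposite an exon of Gm9817. It was at 308, 279 and 282 in the shControl libraries, 192, 176 and 189 with shH4 and 249.8, 258 and 209 with shH6. All shH6 libraries were above those of shH4, by 0.36 (SE 0.092, limma adjusted p = 0.0211). Hspb1 was higher in shH6 by 0.39 (SE 0.095, limma adjusted p = 0.0168).

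The 2 called members of the other class that were lower in shH6 were Glns-ps1 and Gm4204. Glns-ps1, on the plus strand at chr11:19720355-19721472, is a 96.8% copy of the glutamine synthetase gene Glul. It was at 375, 356 and 409 in the shControl libraries, 281, 309 and 332 with shH4 and 246, 273 and 233 with shH6, with a difference of −0.29 (SE 0.086, limma adjusted p = 0.0448). The difference in Glul was −0.13 (limma adjusted p = 0.102). Gm4204, a copy of the nucleosome assembly protein gene Nap1l1 on the plus strand at chr1:135231995-135233225, was at 4715, 5315 and 4890.2 in the shControl libraries, 5979.6, 5663 and 6025 with shH4 and 5404, 5283 and 5336 with shH6. The shH6 libraries were all below those of shH4, by −0.14 (SE 0.042, limma adjusted p = 0.0468), while the difference in Nap1l1 was −0.034 (limma adjusted p = 0.726).

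Gm3571, Gm11824 and Gm6644 passed the threshold under all 17 alternatives in which they could be tested. The other 4 did not in between 4 and 10 of the 17, including settings without 1 library. The highest limma adjusted p was 0.0953 for Hsp25-ps1 (without shH6 replicate 2), 0.106 for Gm15772 (without shH6 replicate 3, at a difference of −0.11), 0.185 for Glns-ps1 and 0.166 for Gm4204 (both without shH4 replicate 3). Glns-ps1 and Gm4204 also lost the threshold with upper-quartile scaling (limma adjusted p = 0.0544 and 0.0677) and with column-total scaling (limma adjusted p = 0.0514 and 0.0891).

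**Figure D3:**
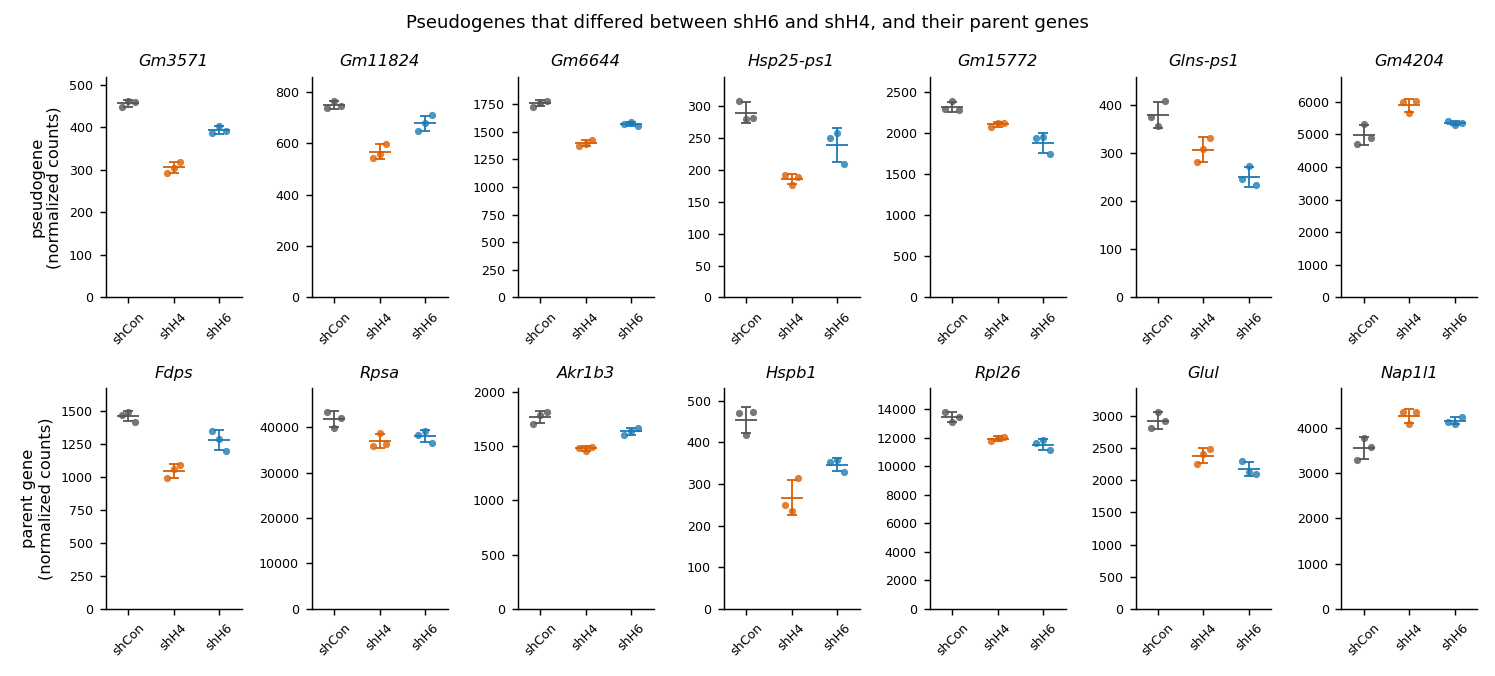
Normalized counts (vertical axes from 0) in the 3 libraries of shControl (shCon), shH4 and shH6 for the 7 pseudogenes with a limma adjusted p under 0.05 between shH6 and shH4 (upper row) and for their parent genes (lower row). Points are libraries, bars the mean and SD of 3, and the shH6 and shH4 libraries do not overlap in the upper row, with Gm3571 at 385 to 404 against 293 to 319.

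Other members with large differences between the hairpins did not pass the threshold, and the size of several of these differences changed when a library was left out. In the ribosomal protein-derived class, Gm45660 (from Rps19) was at 234, 247 and 312 in shH4 and 232, 226 and 222 in shH6, a difference of −0.21 (SE 0.097). Rpl5-ps1 differed by −0.21 (SE 0.11), Gm6533 (Rpl13a) by 0.18 (SE 0.13) and Gm7290 (Rpl13) by 0.17 (SE 0.094). Their limma adjusted p-values were between 0.217 and 0.458, and their shControl means were low, from 131 to 532 normalized counts. The difference was −0.087 in Gm45660 without shH4 replicate 3 and 0.084 in Gm7290 without shH6 replicate 3. In Gm6533 it ran from 0.094 without shH4 replicate 2 to 0.33 without shH4 replicate 1, and was 0.12 without shH4 replicate 3.

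In the other class, Gm46610, a copy of the polyamine acetyltransferase gene Sat1, was at 82.0, 55.5 and 64.2 in shH4 and 54.2, 57.0 and 35.6 in shH6, a difference of −0.46 (SE 0.19, limma adjusted p = 0.167), and of −0.25 without shH6 replicate 3. Gm10171, which matched Timm23, the channel subunit of the inner mitochondrial membrane translocase, without a difference, was at 439, 437 and 436 in shH4 and 621, 574 and 411 in shH6. Its difference was 0.27 (SE 0.11, limma adjusted p = 0.161), with the third shH6 library below all of shH4, and it was 0.45 and passed the threshold without that library, and 0.15 without shH6 replicate 1. Gm6733, a 92.5% copy of Srpr, a subunit of the signal recognition particle receptor, was at 293, 258 and 232 in shH4 and 222, 221 and 221 in shH6. Its difference was −0.23 (SE 0.096, limma adjusted p = 0.167) and −0.15 without shH4 replicate 1, and that of Srpr was −0.30 (SE 0.04, limma adjusted p = 0.000205).

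Against shControl, the class medians lay on different sides. All 148 ribosomal protein-derived members were lower than shControl in shH4 and in shH6, while 113 of the 166 others were higher and 53 lower in each hairpin. The median log2 difference was −0.23 in shH4 and −0.24 in shH6 in the ribosomal protein-derived class, with quartiles of −0.28 to −0.17 and −0.29 to −0.18. It was 0.18 and 0.21 in the other class, with quartiles of −0.16 to 0.30 and −0.16 to 0.31. Over all genes the median was 0.096 and 0.088. The side of the other class depended on the rule for the class. With the class taken from the symbol alone, which counts unnamed copies of ribosomal protein genes there, its median was −0.15 in each hairpin. Both hairpins share the shControl libraries.

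With a limma adjusted p under 0.05, 140 ribosomal protein-derived members were called lower in shH4 and 142 in shH6, against 46.5% and 46.9% of all genes. Of the others, 102 were called higher with shH4 and 111 with shH6, and 51 and 50 were called lower, where 49.2% and 49.1% of all genes were called higher. Since the table was selected for differences from shControl, nothing is read from these counts. In the single libraries, the median of the ribosomal protein-derived class relative to the shControl mean was between −0.19 and −0.26 in the 6 KD libraries and between −0.014 and 0.020 in shControl. The median of the other class was between 0.13 and 0.21 and between −0.014 and 0.021.

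**Figure D4:**
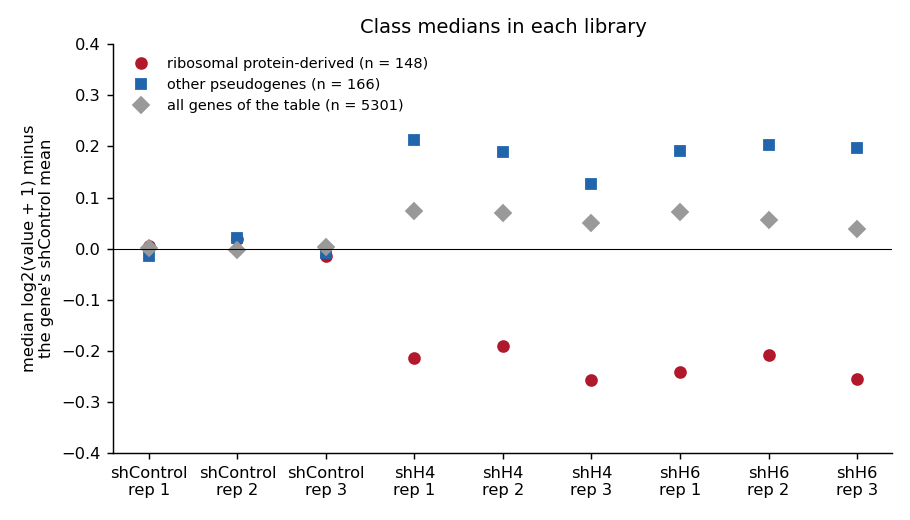
Median over the genes of each class of the log2(value + 1) minus the mean of that gene over the shControl libraries (vertical axis) in each of the 9 libraries (horizontal axis). The ribosomal protein-derived pseudogenes (red circles) are at −0.19 or lower in all 6 KD libraries and the other pseudogenes (blue squares) at 0.13 or higher, with all genes of the table (gray diamonds) between them.

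As a share of the summed values of the table, the ribosomal protein-derived members held 4.04% to 4.205% in the shControl libraries and 3.61% to 3.75% in the 6 KD libraries, without overlap. The other members held 2.999% to 3.04% and 3.11% to 3.24%. All members together held between 6.78% and 7.22%. When the libraries were scaled by their upper quartile or by their total instead, all 148 ribosomal protein-derived members stayed below shControl in both hairpins, and the 113 and 53 of the other class kept their sides. The medians of the ribosomal protein-derived class then ran from −0.29 to −0.20.

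The ribosomal protein-derived members furthest below shControl by the mean of both hairpins were Rpl22-ps1, AC116451.2 and Gm14173. Rpl22-ps1 was at 784, 791 and 717 in the shControl libraries, 489, 511 and 533 with shH4 and 524, 551 and 524 with shH6, a log2 difference of −0.58 (SE 0.06) and −0.52. It was 93.5% identical to Rpl22, a large-subunit protein that is not essential for translation. Rpl22 was also the furthest below shControl of the 62 ribosomal protein genes of the table, at 8359, 7829.8 and 7847 in the shControl libraries, 5618, 5542 and 5679.8 with shH4 and 5735, 5778 and 5327 with shH6, with −0.51 and −0.51.

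AC116451.2, a 91.8% copy of Rpl19 on the minus strand at chr19:49709393-49710124, was at 120.0, 117 and 128 in the shControl libraries, 74.9, 84.7 and 84.3 with shH4 and 82.0, 91.3 and 88.4 with shH6. Its log2 differences of −0.58 and −0.48 compare with −0.17 and −0.22 in Rpl19. Gm14173, a 98.2% copy of Rpl37a on the minus strand at chr2:156410897-156411174, was at 297 in the shControl libraries, 220.2 with shH4 and 223 with shH6 on average, with −0.44 and −0.41 against −0.23 and −0.21 in Rpl37a. The member of the class nearest to shControl by the mean of both hairpins was Rpl23a-ps3, at −0.087 and −0.10. Neither AC116451.2 nor Gm14173 overlapped between shControl and the KD libraries, but both were picked for their distance from shControl, so nothing is read from this.

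In the other class, Gm5424 was furthest below shControl. It is a 99.5% copy of Ass1, the argininosuccinate synthase of the urea cycle, with the whole reading frame intact. Gm5424 was at 3171, 3160.1 and 3141 in the shControl libraries, 1227, 1346 and 1348 with shH4 and 1363, 1440.0 and 1319.6 with shH6, a log2 difference of −1.27 (SE 0.046) and −1.20. Ass1 was at 2168, 1972 and 2056, 865, 833 and 898 and 908, 973 and 913, with −1.25 and −1.15. Per kilobase in shControl, the copy was at 209% of the level of Ass1.

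Both copies of Sat1 followed. Gm5552, opposite in strand to Dnajb6 and in its intron at chr5:29794523-29795037, was at 192, 202 and 187 in the shControl libraries, 99.3, 92.8 and 81.6 with shH4 and 94.98, 89.9 and 106 with shH6, with −1.08 and −0.99. Gm46610 had −0.67 and −1.13, and Sat1 itself −0.91 and −0.86.

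The members furthest above shControl were copies of Hmgb3, Actg1 and Mrto4. Gm6104, from the chromatin protein gene Hmgb3, was at 151, 143 and 141 in the shControl libraries, 235, 213 and 223 with shH4 and 233, 183 and 239 with shH6, with log2 differences of 0.62 (SE 0.10) and 0.58 against 0.51 and 0.44 in Hmgb3. Gm6375, a 92.9% copy of Actg1, had 0.44 and 0.67, with 1 shH6 library at 351 and the others at 220.0 and 231. Mrto4-ps2, from a ribosome assembly factor, had 0.53 and 0.56 against 0.38 and 0.41 in Mrto4. The shControl libraries did not overlap with the KD libraries in any of these 3 members. Nothing is read from this, since the 3 were picked for their distance from shControl.

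Among the copies with the highest levels, Rpl3-ps1 was at 46795, 44754 and 45808 in the shControl libraries, 37701, 39368 and 39571 with shH4 and 38081, 39456 and 37082 with shH6, with −0.24 and −0.26. The other 7 ribosomal protein-derived members of the highest levels (Rps6-ps4, Rpsa-ps10, Gm6136, Rpl10a-ps1, Rpl19-ps11, Gm8730 and Gm12918) had differences between −0.23 and −0.11. Gm15459 was at 51473, 51306 and 51902 in the shControl libraries, 61936, 59312 and 57077 with shH4 and 56959.6, 58555 and 54139 with shH6, with 0.20 and 0.13, and Gm12715 (Actg1) had 0.36 and 0.39. Eif4a-ps4 had 0.11 and 0.059. The copies of Eef1a1 (Gm13456 and AC133509.1), Gapdh (Gm13394 and Gm7336) and Eef1g (Gm4366) were lower than shControl, by values between −0.20 and −0.094.

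Each pseudogene was then set beside its parent. The parent was in the table for 117 ribosomal protein-derived members (47 parents) and 149 others (114 parents). All 149 others lay on the same side of shControl as the parent in both hairpins, and the difference between pseudogene and parent was under 0.1 on the log2 scale in 118 of them for shH4 and 108 for shH6. Across these 149 pairs, the changes of pseudogene and parent had a Pearson correlation of 0.97 in shH4 and 0.96 in shH6. Across the 117 ribosomal protein-derived pairs the correlation was 0.14 and 0.029. The parents of these pairs ran from −0.51 (Rpl22) to 0.16 (Rpl10) in shH4 and from −0.51 to 0.11 in shH6. What made this correlation low was not tested. Pairs share their libraries, several share a parent, and copy and parent can share reads, so these correlations are descriptions.

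The ribosomal protein-derived members were on the side of their parent in 112 of 117 pairs. Their median difference from shControl was −0.23 in shH4 and −0.24 in shH6, that of the parents over the same pairs −0.16 and −0.20, and the median of the differences within pairs −0.048 and −0.029. For shH6 against shH4, 75 of the 117 pairs and 99 of the 149 others had the same sign, with correlations of 0.21 and 0.57. The median distance between copy and parent in shH4 was 0.078 in the 28 ribosomal protein-derived pairs of under 97% identity and 0.037 in the 44 of 99% or more. In the other class it was 0.050 in 37 pairs and 0.029 in 61. In shH6 the same medians were 0.052 and 0.050 in the ribosomal protein-derived class, with 0.072 in the 45 pairs of 97% to 99% between them, and 0.067 and 0.038 in the other. For shH6 against shH4 they were 0.062 and 0.031, and 0.049 and 0.049, so the distance was not smaller for closer copies in every comparison. The levels of these bands differed too, with medians of 583 and 5734 normalized counts in the first class and 380 and 884 in the other.

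**Figure D5:**
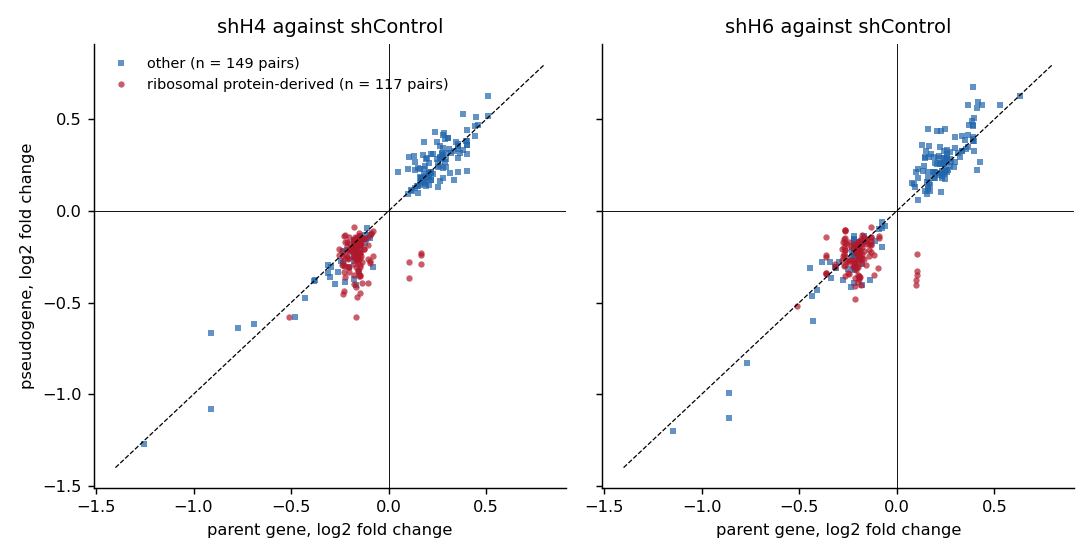
Log2 fold change against shControl of each pseudogene (vertical axis) and of its parent gene (horizontal axis) in shH4 (left) and shH6 (right), with 117 ribosomal protein-derived pairs (red circles), 149 other pairs (blue squares) and a dashed line of equality. The other pairs lie along the line on both sides of 0, and 5 ribosomal protein-derived pairs lie below 0 with the parent above 0.

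The 5 pairs on opposite sides had 2 parents, Rpl10 and Rpl12, which both encode large-subunit proteins. Rpl10 was at 1073, 1138 and 1124 in the shControl libraries, 1330.1, 1232 and 1177 with shH4 and 1219, 1224 and 1145 with shH6, with 0.16 and 0.11. Its copy Rpl10-ps5, in an intron of Nup93 on the same strand, was at 1001, 1080.0 and 1028 in the shControl libraries, 887, 876 and 781 with shH4 and 869, 801 and 768 with shH6, with −0.29 and −0.35. The Rpl10 copies Gm5621 and Gm2387 had differences between −0.33 and −0.23. In all 3 copies the KD libraries were below all shControl libraries, and in Rpl10 they were above them. The difference in Rpl10 was past the limma threshold in shH4 (adjusted p = 0.00742) and not in shH6 (adjusted p = 0.0590). The 3 copies passed it in both. Against shControl, 95.7% of all genes passed in shH4 and 96.1% in shH6, so nothing is read from these calls.

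Rpl12 was at 2360.1, 2476 and 2429 in the shControl libraries, 2535, 2709 and 2569.9 with shH4 and 2565, 2606 and 2618 with shH6, with 0.10 and 0.10. Its copy Gm9396 was at 895, 1037 and 963 in the shControl libraries, 792, 774 and 677 with shH4 and 723, 713 and 751 with shH6, with −0.37 and −0.40, and Gm11425 had −0.28 and −0.37. The 5 copies were 98.4% to 99.5% identical to their parents. Both parents stayed above shControl under the other scalings, at 0.043 or more. Nup93 was also above shControl, at 0.18 and 0.33.

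Copies of the same parent differed in level and, in several families, in the size of the difference from shControl, and their likeness was not tested. The 11 copies of Eef1a1 ran from 113 to 34541 normalized counts in shControl, with differences of −0.37 to −0.16 in shH4 and −0.32 to −0.14 in shH6, around −0.18 and −0.22 in Eef1a1. The 6 copies of Actg1 were all higher, by 0.22 to 0.44 and 0.38 to 0.67, around 0.40 and 0.39 in Actg1. The 4 copies of Hspa8 had 0.18 to 0.21 and 0.12 to 0.21, and Hspa8 0.21 and 0.16. The 4 copies of Tuba1b had 0.17 to 0.21 and 0.26 to 0.33, and Tuba1b 0.21 and 0.24.

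In the ribosomal protein-derived class, the 7 copies of Rpsa had −0.40 to −0.16 in shH4 and −0.22 to −0.086 in shH6, against −0.18 and −0.13 in Rpsa. Between the hairpins, Gm11824 was at 0.26 and the other 6 copies between −0.0039 and 0.13. The 5 copies of Rpl3 had −0.33 to −0.24 and −0.37 to −0.19, all below the −0.16 of Rpl3 in shH4. The ranges were wider among the 4 copies of Rpl19, at −0.58 to −0.21 and −0.48 to −0.18, and the 6 copies of Rpl17, at −0.45 to −0.15 and −0.34 to −0.14. The difference of shH6 from shH4 in Rpl17 was −0.22 (limma adjusted p = 0.0516, not past the threshold), and its 6 copies had differences between −0.11 and 0.11.

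The genes that pseudogenes lay in were examined where they were in the table. This was so for 20 members, and 16 of them were on the same side of shControl as that gene. The 4 exceptions were Rpl10-ps5 in Nup93, Gm12191 (from Rpl30) in Cnot6, Gm13408 (Rps3a1) in Mapkap1 and Gm3511 (Rps28) in Sart3, which were all lower than shControl while the surrounding gene was higher. The first 3 lay on the strand of that gene and Gm3511 on the other. Among the 16, only Gm15542 (Dnaja1) in Psmd13 lay on the strand of the surrounding gene. Of all genes of the table, 2712 were higher and 2589 lower than shControl in each hairpin, and the 16 of 20 was not tested against this. Whether the counting used the strand is not given in the sources used here, so overlapping signals cannot be told apart.

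Of 86 cytosolic ribosomal protein genes, 62 were in the table, and 58 of these were lower and 4 higher than shControl in each hairpin. The 4 were Rpl10, Rpl12, Rpl22l1 and Rpl7l1. The median was −0.16 in shH4 and −0.20 in shH6. Between the hairpins 1 of the 62 passed the limma threshold, Rpl22l1, the paralog of Rpl22, which was lower in shH6, where 8.26% of all genes passed and 4.38% were lower. Of 75 other genes that often have processed pseudogenes, 42 were in the table, 30 of them higher and 12 lower than shControl in each hairpin, with medians of 0.15 and 0.14, and 1 was lower in shH6 than in shH4 (limma adjusted p under 0.05), against the same 4.38% of all genes.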

How the data were processed

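RNA-seq libraries of 6DT1 cells (3 each of shControl, shH4 and shH6, grouped by their titles) were analysed from 1 table. The submitters' processing notes name STAR 2.7.8a, Partek, DESeq2 and the mm39 build. The values deposited by the authors were a signal per gene, normalized counts in the form of estimated reads divided by a size factor per library (median ratio, as the methods state for RNA-seq). Which annotation was counted, by what step and whether by strand, is not given in the sources used here. Each of the 9 value columns was mapped to a sample.

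Ensembl identifiers were matched to GENCODE M21 (5258 of 5301 genes), which describes GRCm38, a build other than mm39. Coordinates are those of GENCODE M21, and sequences were read by transcript identifier. Parents were the best plus-strand blastn 2.17.0 match (E-value limit 1e-10) among protein-coding transcripts, passing over predicted-gene and pseudogene names where another match existed. This exception and the tie-break by shorter transcript were added after the matches were seen. Since 75.2% of the checked values of protein-coding genes, and far fewer of the pseudogenes, were at whole reads, reads could not be recovered and count models were left out.

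The test was limma 3.58.1 (R 4.3.3) on log2(value + 1), with 1 mean per group over all 9 libraries, a trended empirical Bayes step and Benjamini-Hochberg adjustment over all 5301 genes, without a filter. Fold changes on this scale understate the change of low genes. The spread between libraries limits the precision, since total reads per library were not used here, and floors or intervals that need them were not computed. Named were the 8 members of the highest mean per class, the 3 highest and 3 lowest of shH6 minus shH4 per class, the 3 furthest above and below shControl per class, members next to the level limit, those called between the hairpins, and their parents. In the ribosomal protein-derived class no member was above shControl, and only the member nearest to shControl was named. Gm10132, Gm5621, Gm2387, Gm9396, Gm11425, Rpl10-ps5, Rpl23a-ps3, Gm16216 and members in genes of the table were named after their values were seen. The members, lists and rules were chosen with earlier results of these data known. Alternatives were other pseudocounts (0.5 and 10), a filter of 10, upper-quartile and column-total scaling, a fit of only the groups compared, library weights, a replicate block, leaving out each library, other level limits (50, 200 and 100 over all 9 libraries) and other rules for the class.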

Additional observations from a re-analysis of the deposited data

Results flagged for a closer look

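The effects of the 2 hairpins differed by the limma test of shH6 against shH4 in 7 pseudogenes, 4 of the parent genes named and Resf1. The 7 were 2.23% of the 314 members, against 8.26% of all genes of the table. Higher in shH6 were Gm3571 by 0.36 (limma adjusted p = 0.00191), Gm11824 by 0.26 (limma adjusted p = 0.00845), Gm6644 by 0.17 (limma adjusted p = 0.0109) and Hsp25-ps1 by 0.36 (limma adjusted p = 0.0211). Their parents Fdps, at 0.29 (limma adjusted p = 0.00221), Akr1b3, at 0.15 (limma adjusted p = 0.0334), and Hspb1, at 0.39 (limma adjusted p = 0.0168), were also higher in shH6. Rpsa, the parent of Gm11824, differed by 0.043 (limma adjusted p = 0.622).

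Lower in shH6 were Gm15772 by −0.17 (limma adjusted p = 0.0299), Glns-ps1 by −0.29 (limma adjusted p = 0.0448), Gm4204 by −0.14 (limma adjusted p = 0.0468) and Srpr, the parent of Gm6733, by −0.30 (limma adjusted p = 2e-04). The target Resf1 was 0.19 higher on the log2 scale with shH6 than with shH4 (limma adjusted p = 0.00984). All 7 pseudogenes had no overlap between the 3 shH6 and the 3 shH4 libraries, as had 24.8% of all genes. They were called from these same libraries, so the lack of overlap adds no support. Whether the difference in Resf1 has a part in the others was not tested.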

How the results depend on the processing

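Of 1058 values of 58 results under 23 alternatives, 986 gave the same call and direction or stayed within the spread between libraries, 17 reversed, 27 lost and 2 gained the threshold, and 26 counts or medians moved. The cause of these moves was not tested. For shH6 against shH4, 12 of the other pseudogenes were called with library weights (684 genes of the table instead of 438) and 3 with the replicate block, which changed no other count by over 1.5 times. In that fit with the replicate block, Glns-ps1 (limma adjusted p = 0.0551) and Gm4204 (0.0681) lost the threshold. Replicate numbers did not pair the samples, with correlations of the deviations of same-numbered libraries between −0.15 and 0.11. Leaving out 1 library gave 1 to 2 ribosomal protein-derived and 2 to 5 other pseudogenes, with 2 others without shH4 replicate 3 or shH6 replicate 1, and 287 genes of the table without shH6 replicate 1 and 290.0 without shH4 replicate 1.

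Against shControl, column-total scaling gave medians of −0.20 (shH4) and −0.20 (shH6) in the ribosomal protein-derived class and 0.26 (shH6) in the other. Upper-quartile scaling gave −0.29 and −0.29, and 0.12 and 0.16. In the other class the median in shH4 was 0.17 to 0.22 when 1 library was left out. With the class taken from the symbol alone, 0 ribosomal protein-derived pseudogenes were called between the hairpins by limma (3 at an unadjusted p under 0.05), and against shControl 49 and 51 of them and 244 and 252 of the others in shH4 and shH6, with medians of −0.15 and −0.15 in the others, since unnamed copies of ribosomal protein genes then count there. Pairs of under 95% identity had a median of −0.054 for the pseudogene relative to its parent in shH4.

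Small differences of named members between the hairpins, none of them past the threshold, reversed in some settings. Over the fits that left out 1 library, Gm7336 ran from −0.050 to 0.015, Gm13456 from −0.00031 to 0.035, Gm12715 from −0.0051 to 0.070, Gm13394 from −0.057 to 0.012, Gm12918 from −0.038 to 0.053, Gm14173 from −0.057 to 0.11, Mrto4-ps2 from −0.021 to 0.10 and Gm6104 from −0.12 to 0.077. Gm7336 was at 0.0012 with column-total scaling, and with library weights Gm13456 was at −0.0090 and Gm12715 at −0.0088. Gm10171 passed the threshold at 0.44 with library weights. Count models were not run, since whole reads were not recovered. The class from the best match of any name, chosen after seeing the data, changed no call by over 1.5 times.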
